A study of Mus musculus with 8 samples.

Results

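CC chemokines and fractalkine were examined in primary mouse tendon stem cells (TSCs) through 10 genes, Ccl2, Ccl3, Ccl4, Ccl5, Ccl7, Ccl8, Ccl9, Ccl11, Ccl20 and Cx3cl1, taken by symbol from the 19301 genes of the expression table. The study asked what high fat and high glucose do to TSCs. Cells digested from the patellar tendon of C57BL/6J mice and grown in low glucose medium with serum were cultured for 4 days in medium with high glucose and palmitic acid (HFHG, 4 biological replicates) or in medium with 5.5 mM glucose and DMSO (LG, 4 biological replicates). Both groups were cultures grown out of whole tendon digests, for which no sorting step is named, and the sources used here do not tie the replicates to separate animals, so that p-values measure the spread between these cultures. Glucose and palmitic acid were changed together and cannot be told apart in this comparison.

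Chemokines are small secreted proteins that guide leukocytes along a gradient by binding receptors coupled to Gi proteins. CC chemokines carry a pair of adjacent cysteines and share receptors, so that one receptor answers to several ligands. Fractalkine, the product of Cx3cl1, stands on a mucin stalk in the cell membrane, binds CX3CR1 and is released by the proteases ADAM10 and ADAM17. In tendon, as in other connective tissue, resident fibroblast-like cells and macrophages are both known sources of CC chemokines.

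The libraries held 34308108 to 37362725 reads, recovered from the deposited values, and 99.8% of them lay on the listed genes. Expression is given as FPKM, the reads of a gene scaled by its length and by the depth of the library. Of the 19301 genes, 11710 reached 0.5 FPKM in at least 4 of the 8 libraries and were tested, and all 10 chemokine genes were among them. Macrophage markers were present in cultures labelled as tendon stem cells. The 15 markers together summed to 1837 to 1884 FPKM in HFHG and 2035 to 2130 FPKM in LG, most of it Lyz2 (lysozyme), while Adgre1 (F4/80) stood at 26.5 ± 1.23 and 38.0 ± 1.28 FPKM (SD, n = 4 each) and Cd163 was below the limit of the test in every library. Of the 14 macrophage markers tested, 11 were lower in HFHG and 2 (Cd14 and Aif1) higher (1 higher with quantile normalization), with a median log2 fold change of -0.54 beside 0.017 over all genes. C1qa (-0.97) and C1qc (-0.78), chains of complement C1q, and Mrc1 (-0.86), the mannose receptor, had the largest log2 fold changes among them. Tendon markers such as Col1a1 and Thbs4 (a collagen and a thrombospondin of the matrix) and Pdgfra (a receptor of mesenchymal cells) moved the other way, by 1.36, 1.14 and 1.20 on the log2 scale, with 11 of 15 higher, 2 lower (Mkx and Cd44) and a median of 0.60. In bulk libraries, fewer cells of a type and less RNA per cell cannot be told apart, and the part of these markers in the chemokine values below was not tested. LG replicate 4 stood apart from the other LG replicates, with 8.17 to 11.9 times the variance of read sampling in its pairs against 3.45 to 4.78 in all other pairs of a group. Without it, the same numbers of chemokine genes were higher (5) and lower (4).

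The start regions of 4 of the genes are shown because NF-kB, a factor long known to switch on chemokine genes, binds letters that a search can look for there. RefSeq gave a promoter window of 300 bases, 250 before and 50 after the start, for 5 of the 10 genes (build GRCm38.p6). Capitals mark matches to the motifs searched on both strands, which were GGG and TTTCC with any 2 bases between them for NF-kB, TGANTCA for AP-1, TTC and GAA with any 4 bases between them for STAT6, and TATAAA for the TATA box, and where 2 matches overlap the capitals run through both. The windows are chr1:83116516-83116815 on the plus strand for Ccl20, chr11:83578587-83578886 on the minus strand for Ccl9, chr8:94771930-94772229 on the plus strand for Cx3cl1 and chr11:83649329-83649628 on the minus strand for Ccl3.
Ccl20: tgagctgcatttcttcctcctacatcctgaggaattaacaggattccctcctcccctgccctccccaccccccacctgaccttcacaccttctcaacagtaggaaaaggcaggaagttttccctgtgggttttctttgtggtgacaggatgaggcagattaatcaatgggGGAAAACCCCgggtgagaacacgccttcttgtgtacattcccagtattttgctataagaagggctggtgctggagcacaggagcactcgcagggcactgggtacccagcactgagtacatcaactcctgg
Ccl9: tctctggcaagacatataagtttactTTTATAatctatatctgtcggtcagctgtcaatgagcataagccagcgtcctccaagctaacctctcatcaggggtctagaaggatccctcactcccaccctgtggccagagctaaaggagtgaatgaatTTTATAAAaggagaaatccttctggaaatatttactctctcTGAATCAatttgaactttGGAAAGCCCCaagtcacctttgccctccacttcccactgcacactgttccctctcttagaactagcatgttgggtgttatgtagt
Cx3cl1: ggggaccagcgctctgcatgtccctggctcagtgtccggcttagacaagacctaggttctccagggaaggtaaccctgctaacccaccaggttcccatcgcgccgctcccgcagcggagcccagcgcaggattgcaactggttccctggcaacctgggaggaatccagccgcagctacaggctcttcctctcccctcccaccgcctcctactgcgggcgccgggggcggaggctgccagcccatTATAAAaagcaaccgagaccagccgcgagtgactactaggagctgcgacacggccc
Ccl3: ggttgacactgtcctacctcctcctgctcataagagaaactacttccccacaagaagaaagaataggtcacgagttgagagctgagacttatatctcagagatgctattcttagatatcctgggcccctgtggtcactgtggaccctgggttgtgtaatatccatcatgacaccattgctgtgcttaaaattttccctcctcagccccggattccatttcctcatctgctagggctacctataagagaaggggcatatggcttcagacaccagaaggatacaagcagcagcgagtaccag

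The NF-kB letters stood in the windows of Ccl20, 80 bases before the start, and of Ccl9, 35 bases before it, and in 1.63% of all 32851 promoter windows. The letters searched for AP-1 are a loose form of its site, with any base in the middle. They matched as TGAATCA in Ccl9, and 7.81% of all windows held a match to this loose form. The STAT6 letters stood in none of the 5 (6.95% of all windows). TATAAA stood in the windows of Cx3cl1, Ccl8 and Ccl9 and in 13.6% of all windows. Counted from the start, the TATAAA matches began at -6 in Cx3cl1, at -32 in Ccl8 and at -224, -94 and -92 in Ccl9. The Ccl3 window held no match to any of the 4 motifs. A match is a run of letters and not a measured binding site. Ccl2, Ccl4, Ccl5, Ccl7 and Ccl11 had no window in the table.

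Of the 10 genes, 5 were higher in HFHG and 4 were lower, with limma and Benjamini-Hochberg adjustment over all tested genes. The background of this comparison is wide, since 64.8% of all tested genes passed the same adjusted p of 0.05, with 34.0% higher and 30.8% lower in HFHG. The share of chemokine genes that passed (9 of 10) is read against that. Ccl11 and Cx3cl1 also rose past the fold threshold of the study (more than 2-fold), which 3.68% of genes passed upwards and 1.65% downwards, and no chemokine gene fell past it. The values of HFHG and LG did not overlap for 9 of the 10 genes, as for 59.2% of all tested genes. Ccl5 was the exception in both counts.

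**Figure D1:**
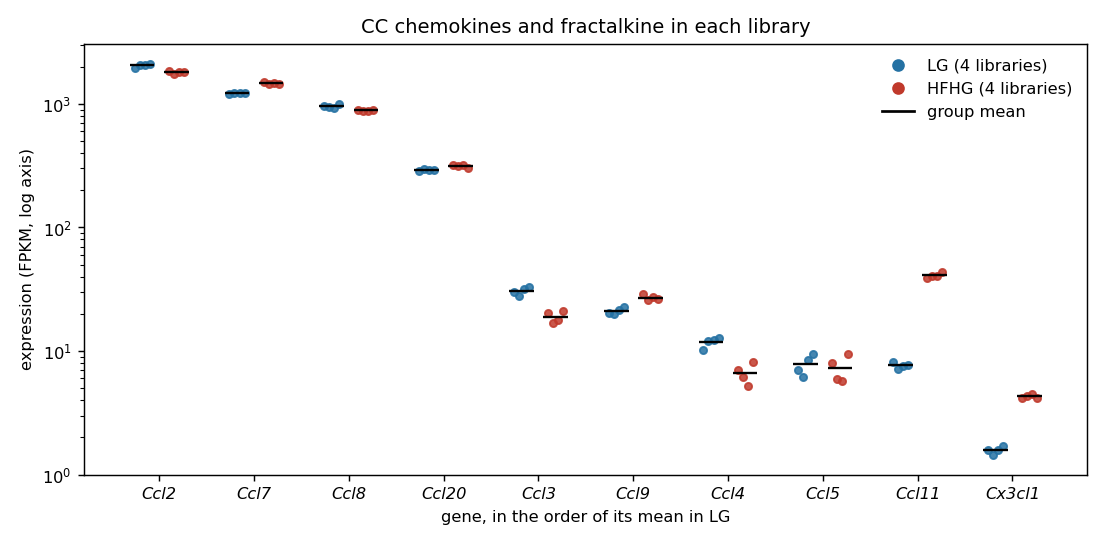
FPKM of the 10 genes in each library on a log axis, with the 4 LG libraries in blue, the 4 HFHG libraries in red and a bar at each group mean. Ccl2, Ccl7, Ccl8 and Ccl20 lie at 288 FPKM or more in every library, and Ccl11 and Cx3cl1 show the widest gaps between the groups.

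Ccl2 and Ccl7 encode monocyte chemoattractant proteins, which act on CCR2 and related receptors and draw monocytes from blood. Ccl2 had the highest level per length of all 10 genes, with 1861, 1753, 1823 and 1811 FPKM in HFHG replicates 1 to 4 and 1944, 2071, 2073 and 2119 FPKM in LG replicates 1 to 4. Every LG library was above every HFHG library, and the log2 fold change was -0.18 (SE 0.028, limma adjusted p = 1.16e-04). With quantile normalization the difference was -0.02 and did not pass (limma adjusted p = 0.588). The antisense gene Gm17268 covers Ccl2, and since the use of strand in counting is not given in the sources used here, their reads may not be told apart.

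Ccl7 went the other way, with 1507, 1444, 1464 and 1458 FPKM in HFHG and 1207, 1231, 1215 and 1227 FPKM in LG. The HFHG libraries were all higher, by 0.27 on the log2 scale (SE 0.020, limma adjusted p = 1.13e-07), a mean 20.3% above that of LG. Ccl8 stood at 899, 881, 875 and 891 FPKM in HFHG and at 955, 938, 931 and 991 FPKM in LG. All LG libraries were again higher, with a log2 fold change of -0.10 (SE 0.023, limma adjusted p = 0.00148). The direction of Ccl8 depends on the scaling, since quantile normalization turned it to 0.10 (limma adjusted p = 1.49e-04), and with libraries scaled to the same sum the log2 fold change of Ccl8 was -0.046.

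Ccl20 encodes the ligand of CCR6, a receptor of dendritic cells and some T and B cells. Its level was 321, 316, 319 and 306 FPKM in HFHG and 288, 295, 292 and 289 FPKM in LG. The groups did not overlap, and the gain was 0.12 on the log2 scale (SE 0.022, limma adjusted p = 5.09e-04). Its size depends on the scaling, since the log2 fold change of Ccl20 was 0.34 with quantile normalization, 0.18 with libraries scaled to the same sum and 0.080 with median-ratio scaling.

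Ccl11 encodes eotaxin, which draws eosinophils through CCR3. It stood at 38.7, 40.5, 40.8 and 43.6 FPKM in HFHG and at 8.18, 7.21, 7.52 and 7.78 FPKM in LG, from 1536 to 1708 and from 281 to 301 reads a library. The lowest HFHG library was far above the highest LG library. The ratio of the means was 5.33 and the log2 fold change 2.40 (95% confidence interval 2.30 to 2.50, limma adjusted p = 5.34e-13), the largest difference of the 10 genes in either direction.

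Ccl3 and Ccl4 encode macrophage inflammatory proteins, which draw monocytes and T cells, and Ccl3 binds CCR1. Ccl3 measured 20.3, 16.8, 17.8 and 21.1 FPKM in HFHG against 30.0, 28.1, 31.6 and 33.1 FPKM in LG. Ccl4 measured 7.06, 6.21, 5.18 and 8.08 FPKM in HFHG against 10.3, 12.1, 12.2 and 12.8 FPKM in LG. Both fell without overlap of the groups, Ccl3 by 0.69 on the log2 scale (SE 0.070, limma adjusted p = 2.19e-06) and Ccl4 by 0.84 (SE 0.11, limma adjusted p = 2.84e-05). Ccl3 and Ccl4 were highest in replicates 1 and 4 among the HFHG libraries and in replicate 4 among the LG libraries. Without LG replicate 4, the log2 fold change of Ccl3 was -0.66 and the log2 fold change of Ccl4 was -0.80.

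Ccl5, or RANTES, which draws T cells and monocytes, did not pass the test. Its values were 7.95, 5.95, 5.69 and 9.46 FPKM in HFHG and 7.07, 6.16, 8.54 and 9.40 FPKM in LG. The groups overlapped over nearly their whole range, and the coefficient of variation between replicates was 24.5% in HFHG and 18.6% in LG, where read sampling alone gives 8.43% and 8.25%. The log2 fold change of -0.11 has a 95% confidence interval from -0.46 to 0.23 (limma adjusted p = 0.553).

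Ccl9 encodes a ligand of CCR1 that is made by myeloid cells and draws osteoclast precursors. It measured 28.8, 26.0, 27.4 and 26.3 FPKM in HFHG and 20.3, 19.8, 21.6 and 22.7 FPKM in LG. HFHG libraries were all higher, by 0.36 on the log2 scale (SE 0.048, limma adjusted p = 2.64e-05), opposite in direction to Ccl3, which shares CCR1.

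Cx3cl1 had the lowest level, with 4.19, 4.37, 4.51 and 4.19 FPKM in HFHG and 1.59, 1.44, 1.60 and 1.72 FPKM in LG. Each HFHG library was more than double any LG library. The ratio of the means was 2.72, and the log2 fold change was 1.39 (95% confidence interval 1.23 to 1.55, limma adjusted p = 4.66e-09). With a pseudocount of 1 FPKM, which shrinks low genes, it was 1.04.

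**Figure D2:**
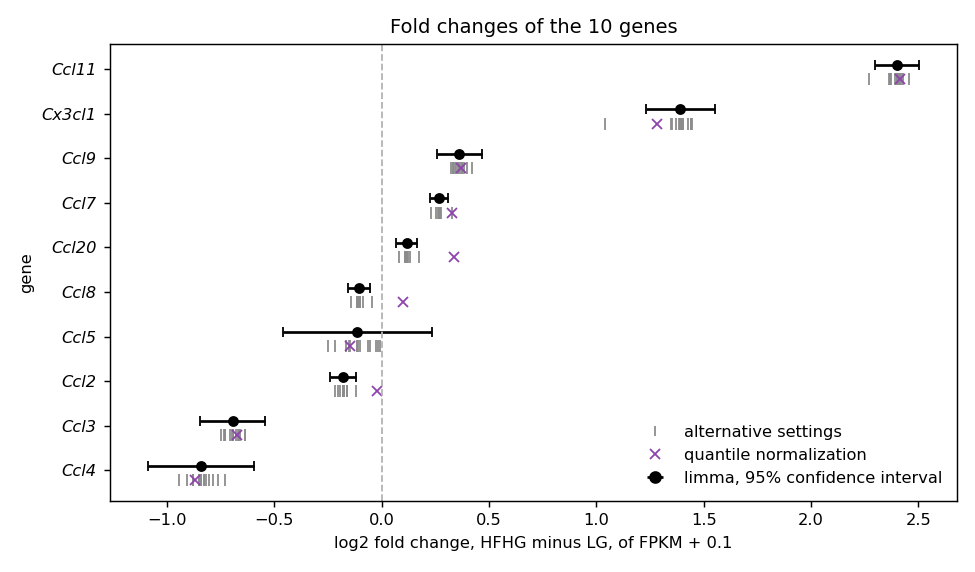
Log2 fold changes, HFHG minus LG, of FPKM + 0.1 for the 10 genes, with points and bars for limma estimates and 95% confidence intervals, grey ticks for the other settings and crosses for quantile normalization. Ccl8 crosses 0 with quantile normalization (0.10), Ccl2 comes to -0.02, and the interval of Ccl5 spans 0.

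Summed over the 10 genes, the level was 4587 ± 82.7 FPKM in HFHG and 4597 ± 99.3 FPKM in LG (SD, n = 4 each). The difference was smaller than the spread between replicates (exact two-sided permutation test, p = 0.771). That result holds for the deposited FPKM only. All genes of a library together summed to 402404 to 409466 FPKM in HFHG and to 416926 to 433432 FPKM in LG. The level of the 10 genes as a share of that total was not tested. The make-up of the sum of the 10 genes shifted. Ccl2 took 39.5% of the sum in HFHG and 44.6% in LG, Ccl7 32.0% and 26.5%, Ccl8 19.3% and 20.7%, and Ccl20 6.88% and 6.33%. Ccl11 took 0.891% in HFHG and 0.167% in LG.

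The highest levels stood in the same order in both groups, namely Ccl2, Ccl7, Ccl8 and Ccl20. Below these, Ccl11 came next in HFHG, followed by Ccl9, Ccl3, Ccl5, Ccl4 and Cx3cl1. In LG it was Ccl3, followed by Ccl9, Ccl4, Ccl5, Ccl11 and Cx3cl1. Neighbours in these orders that overlapped were Ccl5 with Ccl4 in HFHG and Ccl5 with Ccl11 in LG.

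A ratio of each gene to Ccl2 within its own library does not depend on a scaling factor of that library. Of the 9 ratios, 7 differed between HFHG and LG after adjustment over the 9 (exact two-sided permutation test, p = 0.0286, the smallest that 4 against 4 libraries allow, adjusted p = 0.0367). Without adjustment the same test on the ratio to Ccl2 had a p below 0.05 for 60.8% of all tested genes and for these 7 of the 9, and all ratios share the denominator Ccl2, which itself moved. Ccl7 stood at 81.0%, 82.4%, 80.3% and 80.5% of Ccl2 in HFHG and at 62.1%, 59.5%, 58.6% and 57.9% in LG. On the log2 scale the differences of the ratios were 2.58 for Ccl11, 1.57 for Cx3cl1, 0.54 for Ccl9, 0.45 for Ccl7 and 0.30 for Ccl20. They were -0.52 for Ccl3 and -0.66 for Ccl4, so both genes fell relative to Ccl2. The call of Ccl4 was lost without LG replicate 2, 3 or 4 (differences of -0.65, -0.65 and -0.64, exact permutation adjusted p = 0.0735 each). The ratio of Ccl8 differed by 0.07 (exact permutation p = 0.0857, adjusted p = 0.0964) and that of Ccl5 by 0.07 (exact permutation p = 0.743), neither of which passed. Without LG replicate 1 the ratio of Ccl8 differed by 0.10 and passed (exact permutation adjusted p = 0.0321).

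Of the 10 genes, 8 lie on chromosome 11 in a pair of stretches (GENCODE M21, GRCm38). The first runs from 82035571 to 82116799 and holds Ccl2, Ccl7, Ccl11, Ccl12 and Ccl8. The other runs from 83525778 to 83664683 and holds Ccl5, Ccl9, Ccl6, Ccl3 and Ccl4. The stretches are 81.2 kb and 139 kb long, with 1409 kb between them. Ccl20 lies on chromosome 1 (83116766 to 83119167) and Cx3cl1 on chromosome 8 (94772009 to 94782427). In the first stretch, Ccl7 and Ccl11 rose between Ccl2, which was lower, and Ccl12 and Ccl8, which were lower as well (Ccl8 was higher and Ccl2 did not pass with quantile normalization). In the other stretch Ccl9 rose, while its neighbour Ccl6 fell by 0.50 on the log2 scale.

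**Figure D3:**
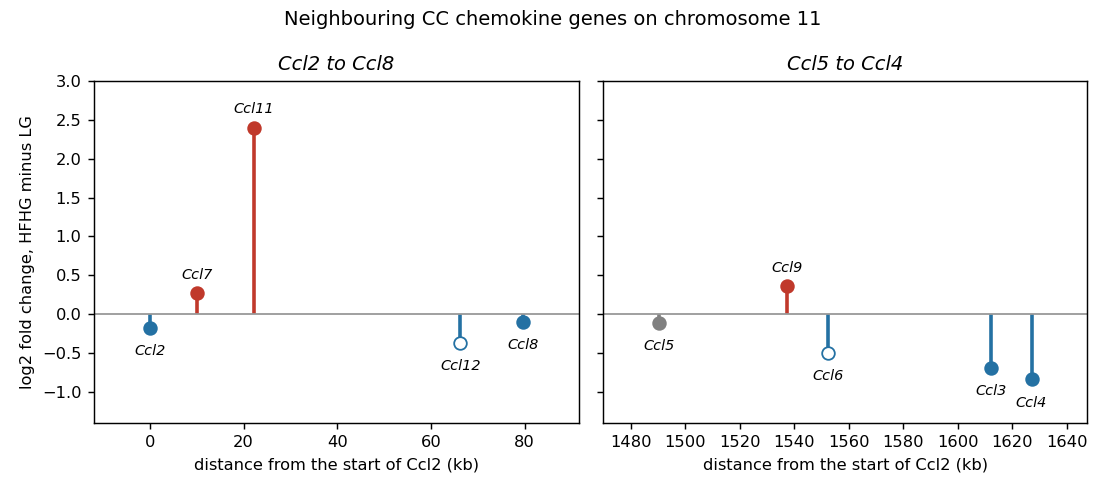
Log2 fold change, HFHG minus LG, of the CC chemokine genes of chromosome 11 against the distance of their lower coordinate from that of Ccl2 in kb, with red for higher, blue for lower and grey for Ccl5, which did not pass. Open circles are Ccl12 and Ccl6, which are not among the 10 genes, and Ccl8 is higher (0.10) with quantile normalization.

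Among the other ligands of these families, 11 of 14 listed genes were measured and 4 passed the limit for the test, of which 2 were lower in HFHG and none higher. Ccl6, a myeloid CC chemokine, was at 350, 340, 349 and 347 FPKM in HFHG and 484, 481, 498 and 504 FPKM in LG (limma adjusted p = 8.87e-10). An antisense gene, E230016K23Rik, covers Ccl6, and with quantile normalization the log2 fold change of Ccl6 was -0.30. Ccl12, a further monocyte chemoattractant of mice, fell by 0.37 on the log2 scale (limma adjusted p = 0.00351). Ccl25 had a log2 fold change of 0.014 and Ccl27a of -0.13, and neither passed. Ccl25 and Ccl27a are overlapped by genes on the opposite strand, Elavl1 and Il11ra1, so that their values are uncertain where counting did not use strand.

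Receptors were scarce. Of 11 chemokine receptors described here, all were measured and only Ccr1, a receptor of Ccl3 and Ccl9, passed the limit for the test. Ccr1 was lower, at 6.96 ± 0.391 against 8.45 ± 0.622 FPKM (SD, n = 4 each, limma adjusted p = 0.00170). Below the limit, Ccr3, the receptor of Ccl11, had 28 reads in all HFHG libraries together and 5 in LG, a ratio of 5.46 with a 95% counting interval from 2.08 to 18.1 (exact permutation p = 0.0286, adjusted p = 0.181 over 19 genes). Ccr2, the receptor of Ccl2, had 11 and 22 reads. Ccr6, the receptor of Ccl20, had 4 and 2 reads, and Cx3cr1, the receptor of fractalkine, 43 and 24.

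Atypical receptors mostly bind chemokines without signalling through G proteins and remove or present them. Not every one of them binds the chemokines examined here, and binding was not measured. Of the 4 measured, Ackr3 and Ccrl2 passed the limit for the test and both were lower. Ackr3 measured 37.7, 36.2, 37.6 and 36.8 FPKM in HFHG and 53.4, 52.9, 53.3 and 51.7 FPKM in LG (limma adjusted p = 4.87e-09). Ccrl2 fell by 0.92 on the log2 scale (SE 0.22, limma adjusted p = 0.00289), at 0.513 ± 0.154 against 1.06 ± 0.294 FPKM, and with a pseudocount of 1 FPKM the log2 fold change of Ccrl2 was -0.44. The other two, below the limit, had more reads in HFHG. Ackr4, a scavenger of CCL19, CCL21 and CCL25, had 145 reads in all HFHG libraries together and 59 in LG, a ratio of 2.40 with a 95% counting interval from 1.76 to 3.30. Ackr2, a scavenger of inflammatory CC chemokines, had 16 and 2 reads, a ratio of 7.80 with an interval from 1.83 to 69.9. Neither overlapped between the groups, and neither passed after adjustment (exact permutation p = 0.0286, adjusted p = 0.181 over 19 genes).

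Of 12 tested genes for the release or trimming of chemokines, most of them proteases, 5 were higher, 6 lower and 1 (Dpp4) did not pass. Mmp13 and Mmp9 fell by 0.90 and 0.57 on the log2 scale, and Mmp3, a stromelysin that can trim monocyte chemoattractants, rose by 0.59. With a pseudocount of 1 FPKM the log2 fold change of Mmp9 was -0.31. Of the releasing enzymes of fractalkine, Adam10 rose by 0.17 and Adam17 fell by 0.33 (limma adjusted p = 9.96e-04 and 3.59e-06). Among 14 tested genes of signalling behind the receptors, 5 were higher and 3 lower, with the G protein subunit Gnai1 (1.56), the G protein regulator Rgs2 (0.78) and the receptor kinase Grk5 (0.64) the 3 largest log2 fold changes. Of 22 genes of NF-kB, AP-1 and cytokine receptors, listed for the induction of chemokine genes, 10 were higher and 9 lower. Nfkbia, the inhibitor that NF-kB itself induces, rose by 0.94 from 46.4 to 89.3 FPKM, and Il1r1, the interleukin 1 receptor, by 0.78, while Il13ra1, a receptor chain for interleukin 13, fell by 0.74. The medians of these 3 lists were -0.13, 0.099 and 0.0028, beside 0.017 over all tested genes.

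**Figure D4:**
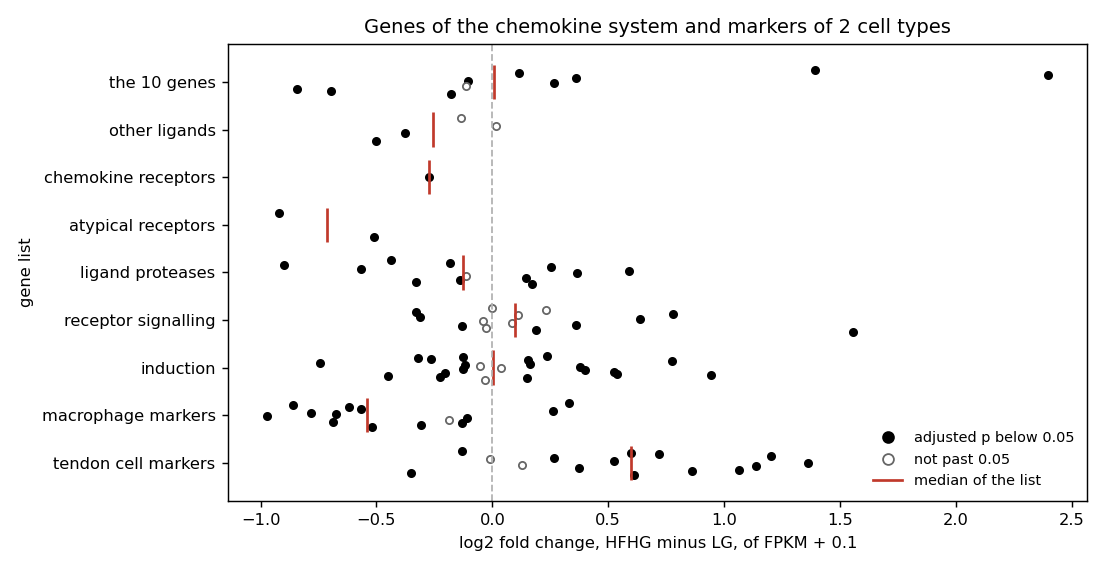
Log2 fold changes, HFHG minus LG, of FPKM + 0.1 for the tested genes of each list, with filled points for adjusted p below 0.05, open points for the rest and a red line at the median of the list. The median is -0.54 for macrophage markers and 0.60 for tendon cell markers, and the 10 chemokine genes reach from -0.84 to 2.40.

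Markers of other cells were mostly absent. Endothelial markers summed to 1.68 to 1.84 FPKM in HFHG and 1.90 to 2.23 FPKM in LG, with 2 of 8 tested. Tek was higher, though not past the threshold with quantile normalization, and Vwf stood at 0.358 to 0.418 FPKM in HFHG and 0.925 to 1.09 FPKM in LG. Lck and Vwf reached the limit of 0.5 FPKM only in the LG libraries, so that the limit itself favours a lower value in HFHG. Of 6 T cell markers only Lck was tested, at 0.258 to 0.423 FPKM in HFHG and 0.687 to 0.965 FPKM in LG, while Cd3e was at most 0.0959 FPKM in any library. Of 10 neutrophil and mast cell markers only S100a8 was tested, which fell by 1.39 on the log2 scale. S100a8 was not scarce, at 30.5 FPKM in HFHG and 80.4 FPKM in LG on average. S100a9, its partner in neutrophils, was at most 0.0530 FPKM in any library.

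The genes whose level went most closely with each chemokine gene were named by Pearson's r of log2(FPKM + 0.1) over the 8 libraries, as a description in which the difference between the groups and the libraries are shared. Nuak1, Atp2b4 and Aldh1a1 were nearest to Ccl11 (r = 0.999 each), and Fam20a, Ism1 and Dgat2 to Cx3cl1. Slc25a42, Eif2ak3 and E2f6 were nearest to Ccl7, Cinp, Erfe and Cisd3 to Ccl2, and Homer3, Myg1 and Ankrd13b to Ccl8. Dhrs7, Fah and Hacl1 were nearest to Ccl9, Ntng2, Spata2l and Vsig10l to Ccl20, Puf60, Polr1d and U2af1l4 to Ccl3, and Atad3a, Timm9 and Ddah2 to Ccl4. Ccl5 had the loosest match, with r = 0.952 for Dnaaf3, followed by Cdc42 and H2-Q1.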

How the data were processed

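Poly(A) RNA of 8 libraries, 4 of TSCs in HFHG medium and 4 in LG medium, was sequenced after stranded library preparation. The authors deposited FPKM values for 19301 genes, without pooling of replicates. The submitters' processing notes name HISAT2 2.1.0 and the mm10 build. The counting program, annotation and filters are not given in the sources used here, so reads of similar or overlapping genes may be split in an unknown way. Groups and replicate numbers came from the sample titles.

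The reads behind the FPKM were recovered as whole numbers for 19250 genes (99.7%). Genes with at least 0.5 FPKM in at least 4 of 8 libraries (11710) were tested on log2(FPKM + 0.1), which understates changes of low genes, with limma 3.58.1 in R 4.3.3 (intensity trend) and Benjamini-Hochberg adjustment over all genes. On simulated data with 2-fold changes, 198 of 198 changed genes were found among 11625 genes, and 9 unchanged genes were called. Smaller changes, such as those of Ccl2, Ccl7, Ccl8 and Ccl20, and the wider spread of LG replicate 4 were not simulated. The simulation changed few genes, evenly up and down, whereas 64.8% of tested genes passed in the data. It therefore cannot show the rate of false calls where many genes change or scaling differs between groups. Ratios to Ccl2 and genes below the limit were compared by exact two-sided permutation over 70 arrangements (SciPy 1.17.1). Counting intervals cover counting error only. The chemokine genes and gene lists were chosen with earlier results of these data known. All 10 genes are named, up to 3 genes of each list with the largest absolute log2 fold change among those past an adjusted p of 0.05, all tested ligands and receptors, and the 3 genes of highest Pearson's r for each chemokine gene. Mkx, Cd44, Cd14, Aif1, Dpp4, Adam10, Adam17, Lyz2, Adgre1, Cd163, Cd3e, S100a9, Ccr2, Ccr3, Ccr6, Cx3cr1, Ackr2 and Ackr4 were named outside this rule, with their values seen. An item of the receptor list is not reported here. Alternatives were the pseudocount, the filter, other scalings, voom on recovered reads, a replicate block and leaving out each library.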

Additional observations from a re-analysis of the deposited data

Results flagged for a closer look

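In 36 named genes, or 72 groups of 4 libraries, the highest or lowest value was compared with the rest of its group by its gap as a share of the range, against the 95% critical value of Dixon's test, which chance passes in about 1 in 20 groups. It was passed by 2 groups, and by none of the 10 chemokine genes. Ccl27a was 1.22 FPKM in LG replicate 3, below the 1.73 to 1.82 FPKM of the other LG libraries. Pdgfra was 9.99 FPKM in LG replicate 1, above the 9.44 to 9.48 FPKM of the others.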

How the results depend on the processing

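Quantile normalization, which forces the same distribution of values on every library, reduced the number of chemokine genes lower in HFHG from 4 to 2, because Ccl8 turned to 0.10 and Ccl2 came to -0.02 on the log2 scale, and the cause was not tested. In all other settings 5 genes were higher and 4 lower, and 2 passed the fold threshold throughout. Of the ratios to Ccl2, 6 to 8 differed when 1 library was left out. The median log2 fold change of all genes ranged from -0.022 to 0.075. Over all tested genes, replicates of the same number did not deviate together (correlations from -0.074 to -0.0056). Whether the numbers pair cultures is not stated in the sources used here. A fit with the replicate block changed no call of a chemokine gene, with 5 higher and 4 lower. It made the SE smaller for some chemokine genes and larger for others. All 10 genes passed the filter, so the planned test of chemokine genes below it had nothing to test. Read depth limits Ccr2, Ccr3, Ccr6, Cx3cr1 and Ackr2, which rest on few reads.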
